A study of Mus musculus with 4 samples.

Results

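The Hedgehog pathway genes described here were Gli1, Gli2, Gli3, Ptch1, Smo, Sufu and Hhip, 7 of the 54446 genes listed in an expression table of cultured mouse mammary cells. They were taken by gene symbol. 6 of the 7 were above 0 in all 4 libraries, and Hhip was listed at 0 in 1 of them. The 4 libraries came from wild type C57BL/6 mice. Mammary gland cells were sorted by flow cytometry as basal or luminal cells, embedded in Matrigel, and grown as a 3D culture with EGF and either the solvent DMSO or 100 μM baicalin, a plant flavonoid glycoside. Each of the 4 conditions had 1 library, and neither the age of the mice, the number pooled, nor the days in culture are given for these libraries. The comparisons below set mRNA levels with baicalin against those with DMSO under each sort label, and the labels against each other.

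With 1 library per condition there is no replicate check and no test was run, and every statement compares single libraries. Levels are FPKM, the fragments counted for a gene divided by its exon length in kilobases and by the size of its library. Library sizes were estimated from the FPKM, as the size at which low genes come out at whole fragments. They were 19356108 to 20648790 fragments, so a fragment on 1 kb of exon was worth 0.0484 to 0.0517 FPKM. The fragments behind a gene were worked back from its FPKM with these sizes. Over all genes they summed to 102% to 103% of the estimated size. Of the 28 values of the members, 26 came out within 0.1 of a whole number, and the other 2, both of Sufu, within 0.283 and were rounded. Ratios are given with exact 95% intervals from these fragments, which cover counting error only and not the spread between cultures or animals. Log2 differences were taken on log2(FPKM + 1), which understates the change of low genes, and a difference beyond 1 in either direction is called past the threshold. In cultures of mixed cells, fewer cells of a type and less RNA per cell cannot be told apart.

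The labels went against the basal markers and most of the luminal markers. All 10 basal markers, Krt5 and Trp63 among them, had more FPKM under the luminal label than under the basal label, with DMSO as with baicalin. Krt5, a keratin of basal cells, was at 128 and 3.01 FPKM in the libraries labelled basal (DMSO, then baicalin) and at 2015 and 2415 FPKM in those labelled luminal. The 10 luminal markers summed to 4308 and 2987 FPKM under the basal label and to 1272 and 1069 FPKM under the luminal label. With DMSO 9 of these 10 were lower under the luminal label, all but Foxa1 (1.80 FPKM under the basal label, 9.30 under the luminal label), and with baicalin all 10 were. Hormone-sensing luminal markers were divided, with 3 of 5 higher under the luminal label in either treatment. With DMSO these were Esr1 (0.992 and 1.44 FPKM), Pgr (1.08 and 4.81 FPKM) and Cited1 (0.0574 and 7.36 FPKM, basal label first). The libraries are therefore named by their labels throughout, and no cell type is read from them.

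Hedgehog ligands bind the receptor Ptch1. Unbound Ptch1 holds back Smo, a membrane protein that passes the signal on at the primary cilium. Sufu binds the GLI transcription factors and restrains them. Gli1 acts as an activator and is itself a target of the pathway, Gli2 is mainly an activator, and Gli3 is best known in its shortened repressor form. Ptch1 and Hhip, which binds ligand at the cell surface, are targets that limit the signal. In the mammary gland, the pathway is known to be held in check in the epithelium during duct growth, with Gli3 as a repressor in the embryonic gland.

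Gli3 (ENSMUSG00000021318, GRCm38 chr13:15463235-15730026, plus strand) had the widest range of the 7 on the log2(FPKM + 1) scale. It was at 3.02 FPKM in the library labelled basal with DMSO, 0.632 with baicalin, 8.79 in the library labelled luminal with DMSO and 9.40 with baicalin. The library labelled basal with baicalin was lowest by a wide margin, and the pair labelled luminal was highest. Under the basal label, baicalin went with 4.78-fold less Gli3 (ratio 0.209, interval 0.171 to 0.255, log2 difference -1.30). 365 genes, 2.05% of the 17787 tested, had a lower log2 difference in that comparison. Under the luminal label the ratio was 1.07, with an interval from 0.9997 to 1.14, so no difference was detectable at this depth. Between labels, Gli3 was 2.91-fold higher under the luminal label with DMSO (interval 2.65 to 3.21) and 14.9-fold higher with baicalin (12.4 to 18.0). The baicalin difference under the luminal label minus that under the basal label was 1.39 on the log2 scale, untested.

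4 of the 10 basal markers, Krt5, Krt14, Krt17 and Trp63, lay in the same order across the libraries as Gli3. So did the sum of the 10, which keratins dominate. For Gli3 the step between the libraries labelled luminal was within counting error (ratio 1.07, interval 0.9997 to 1.14). That part of the order is thus unresolved, and the share of all genes in this order was not counted. The sum of the 10 basal markers was 1761 FPKM in the library labelled basal with DMSO and 479 with baicalin. It was 5404 FPKM in the library labelled luminal with DMSO and 7199 with baicalin. Of the muscle genes among them, Acta2, Cnn1, Tagln and Mylk were highest in the library labelled luminal with DMSO, as was Oxtr. Myh11, also a muscle gene, was highest in the library labelled luminal with baicalin (11.6 FPKM, 9.5 with DMSO). With baicalin 9 of the 10 were lower under the basal label and 5 of the 10 under the luminal label. Over all genes tested, 49.1% and 54.4% were lower. Myh11, the exception under the basal label, had 11 fragments with DMSO and 13 with baicalin there. None of the 10 was listed at 0 in any library. Trp63, a transcription factor of basal cells, had the same order, at 6.01, 0.305, 25.2 and 27.0 FPKM. The part of cell makeup in the Gli3 values was not tested.

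Gli1 (ENSMUSG00000025407, chr10:127329882-127341974, minus strand) was low throughout. It rested on 12 fragments (0.121 FPKM) in the library labelled basal with DMSO, 1 fragment (0.0099 FPKM) with baicalin, 109 (1.13 FPKM) in the library labelled luminal with DMSO and 52 (0.504 FPKM) with baicalin. Each baicalin library was below its DMSO library. The ratio was 0.447 under the luminal label (interval 0.315 to 0.628, log2 difference -0.50). Under the basal label it was 0.0816, with an interval from 0.00191 to 0.551 that the single fragment left wide. Between labels, Gli1 was 9.32-fold higher under the luminal label with DMSO (5.12 to 18.6). 62 of its exon bases (1.24%) overlap Arhgap9 and 265 (5.31%) the antisense Gm47200, which was listed at 0 in all 4 libraries, and the counting's strand setting is not given.

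Gli2 (ENSMUSG00000048402, chr1:118834132-119053619, minus strand) had 28, 3, 20 and 26 fragments in the libraries labelled basal with DMSO and baicalin and labelled luminal with DMSO and baicalin. These are 0.205, 0.0215, 0.15 and 0.183 FPKM, so 1 library stood below 3 that counting error could not separate in order. The ratio for baicalin was 0.105 under the basal label (0.0204 to 0.340) and 1.22 under the luminal label (0.654 to 2.30). Summed, the 3 GLI genes came to 3.35, 0.664, 10.1 and 10.1 FPKM in that order of libraries. Gli3 made up 87.3% to 95.3% of the sum in every library, and Gli1 made up 11.2% with DMSO and 5.0% with baicalin under the luminal label.

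**Figure D1:**
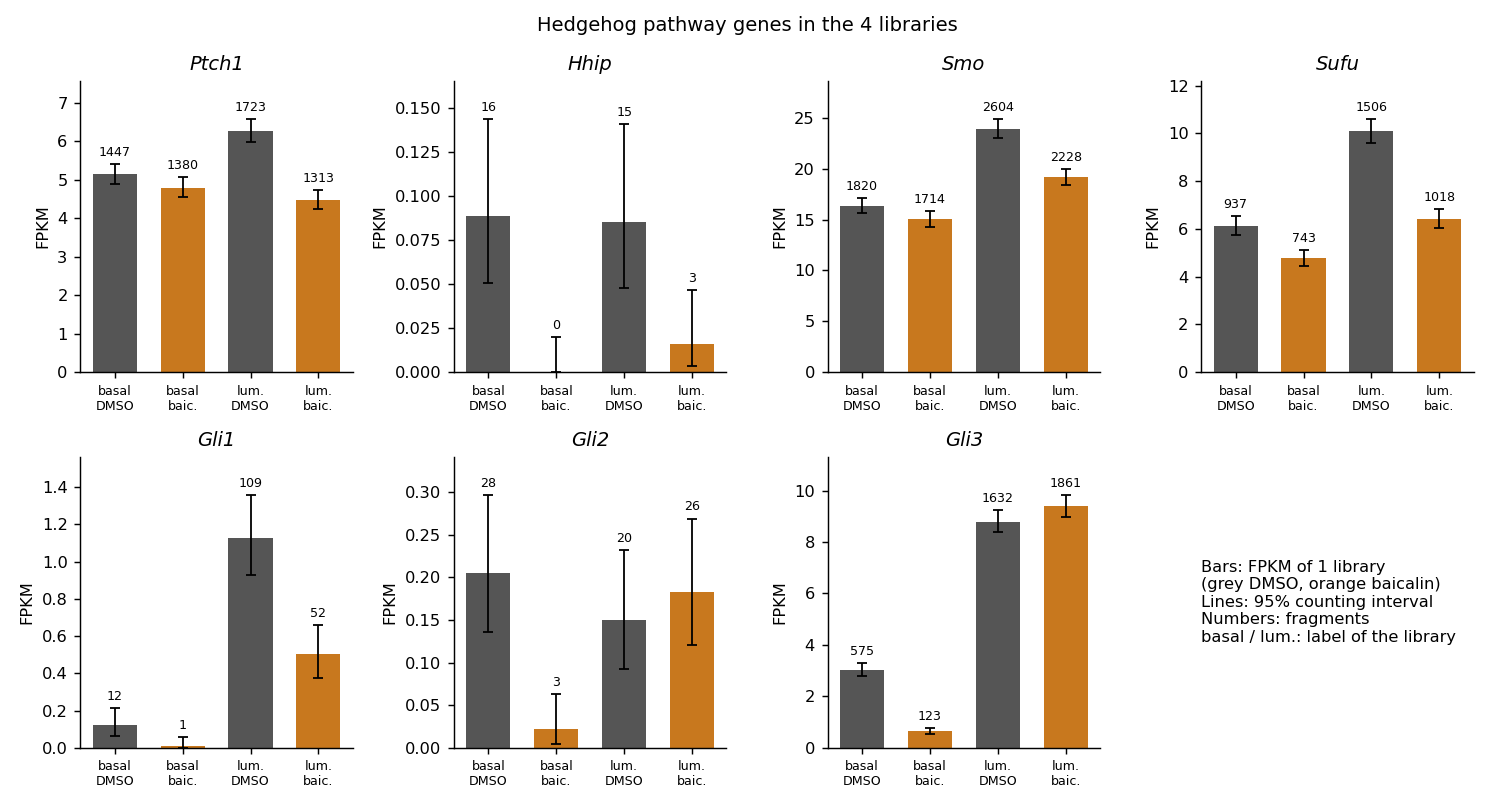
Bars give the FPKM of each member in each of the 4 libraries (grey DMSO, orange baicalin), with lines for the 95% counting interval, the number of fragments above each bar and a y axis of its own per gene. Smo was highest in every library, and Gli3 ran from 0.632 to 9.40 FPKM.

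Ptch1 (ENSMUSG00000021466, chr13:63508328-63573598, minus strand) was at 5.14, 4.80, 6.28 and 4.48 FPKM in the libraries labelled basal with DMSO and baicalin and labelled luminal with DMSO and baicalin. The libraries lay close together, with the library labelled luminal with DMSO above the rest. Under the luminal label the ratio was 0.714 (0.664 to 0.768), and under the basal label 0.934 (0.867 to 1.01), which holds 1. The other target that limits the signal, Hhip (ENSMUSG00000064325, chr8:79965851-80058006, minus strand), had 16, 0, 15 and 3 fragments in the same order. Both baicalin libraries were thus lower. Under the basal label Hhip was at least 5.45-fold lower with baicalin, set against a floor of 3 fragments, and under the luminal label the ratio was 0.187 (0.0348 to 0.663).

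Smo (ENSMUSG00000001761, chr6:29735503-29761365, plus strand) was at 16.3, 15.0, 23.9 and 19.2 FPKM in the libraries labelled basal with DMSO and baicalin and labelled luminal with DMSO and baicalin. It was the highest member in each library, and each neighbouring step in the order of its libraries was beyond counting error. The baicalin ratio was 0.922 (0.862 to 0.985) under the basal label and 0.802 (0.758 to 0.849) under the luminal label. Sufu (ENSMUSG00000025231, chr19:46396896-46488804, plus strand) was at 6.14, 4.76, 10.1 and 6.41 FPKM in the same order. Both baicalin libraries were lower than their DMSO libraries, by a ratio of 0.776 (0.704 to 0.856) under the basal label and 0.634 (0.585 to 0.687) under the luminal label. A stretch of 339 bases of Smo is 97.935% identical to Gm4066, which was listed at 0 in all 4 libraries.

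**Figure D2:**
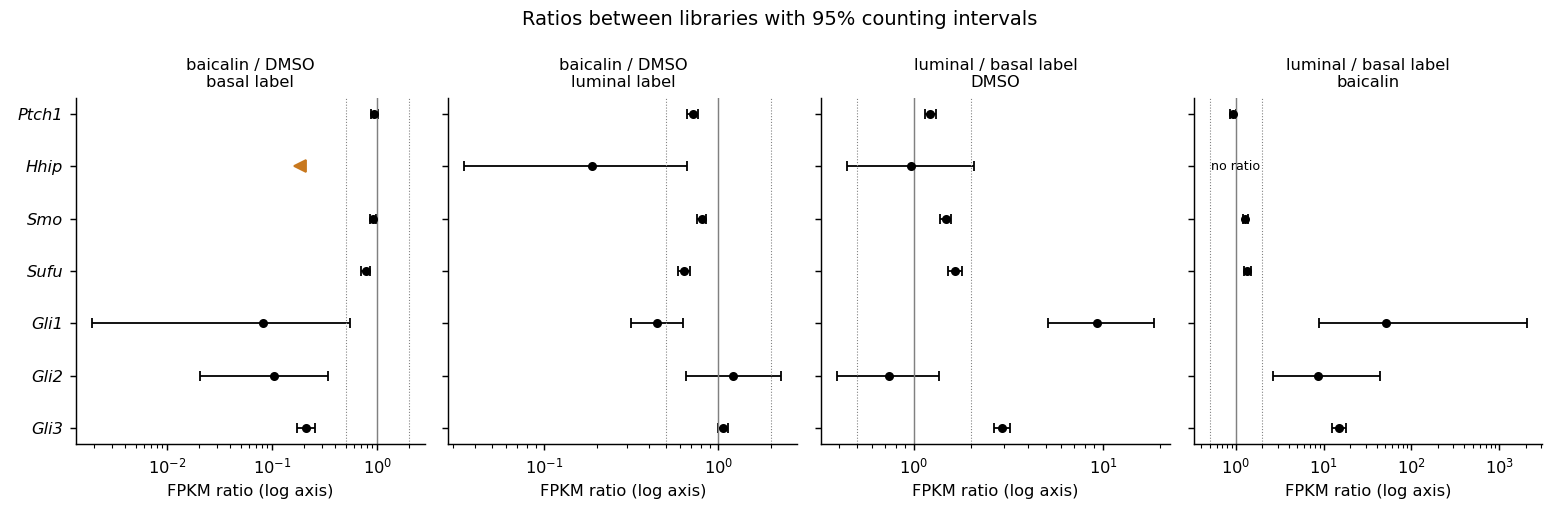
Ratios of FPKM for the members with exact 95% intervals, with panels on different x axes. A triangle marks Hhip under the basal label, 5.45-fold lower against a floor of 3 fragments, which is not a 95% bound. No ratio is drawn where Hhip had 3 fragments against 0.

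Counted over the 6 members above 0 in all 4 libraries, few passed the threshold. On the log2(FPKM + 1) scale a gene below 1 FPKM in both libraries of a comparison cannot pass, however large its ratio. Gli2 was below 1 FPKM in all 4 libraries, and Gli1 in all but the library labelled luminal with DMSO. The counts thus say nothing on Gli2, nor on Gli1 for baicalin under the basal label or between labels with baicalin. For baicalin under the basal label it was 1 of 6, Gli3, beside 5.48% of all genes tested. All 6 differences were below 0, beside 49.1% of all genes, though the interval of the Ptch1 ratio held 1. Their median was -0.19 (all genes 0.01). Under the luminal label 0 of 6 passed, beside 3.95% of all genes. There 4 of 6 were below 0, beside 54.4% of all genes, with a median of -0.36 (all genes -0.02). For the 2 above 0, Gli2 and Gli3, the interval of the ratio held 1. Hhip, outside these counts, was lower with baicalin under both labels. Between labels, Gli3 was the 1 of 6 with DMSO, beside 8.56%, and with baicalin, beside 8.23%, and the medians were 0.58 and 0.35 (all genes 0.01 and -0.03). With so few members and no replicates, these counts are a description. The 4 comparisons share libraries.

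**Figure D3:**
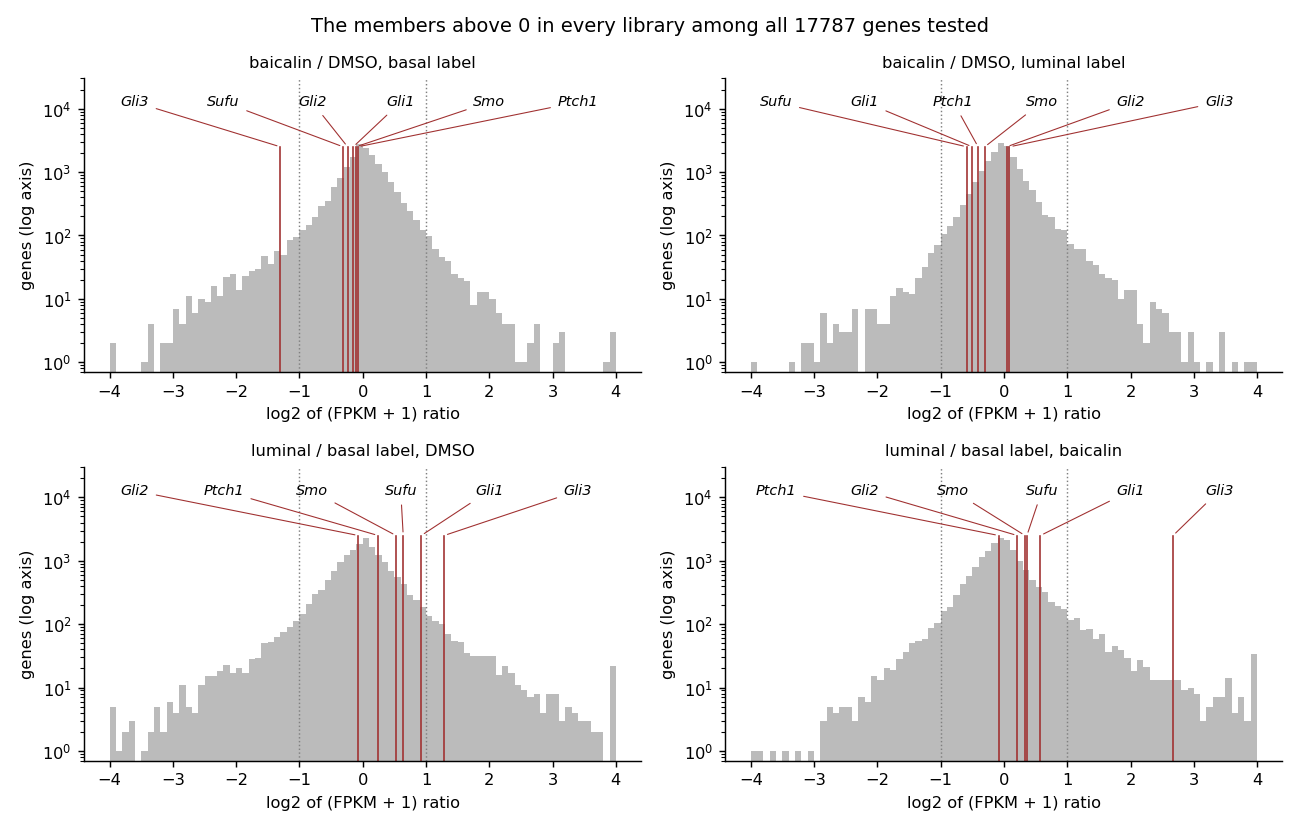
Log2 differences of the 17787 genes tested, with the members marked and values beyond 4 in either direction drawn in the end bins. Gli3 under the basal label stood at -1.30, with the other members nearer to 0.

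Windows from 250 bases before to 50 after the transcript start were found in RefSeq (GRCm38.p6) for 6 of the 7 members, all but Gli1. They are shown for Gli3, with the widest range on the log2(FPKM + 1) scale, and for Ptch1, the receptor that is also a target. Capitals mark the GC box GGGGCGGGG, a binding motif of SP and KLF factors, searched on both strands. Gli3 is at chr13:15463473-15463772 on the plus strand and Ptch1 at chr13:63565686-63565985 on the minus strand, each 5′ to 3′.
Gli3: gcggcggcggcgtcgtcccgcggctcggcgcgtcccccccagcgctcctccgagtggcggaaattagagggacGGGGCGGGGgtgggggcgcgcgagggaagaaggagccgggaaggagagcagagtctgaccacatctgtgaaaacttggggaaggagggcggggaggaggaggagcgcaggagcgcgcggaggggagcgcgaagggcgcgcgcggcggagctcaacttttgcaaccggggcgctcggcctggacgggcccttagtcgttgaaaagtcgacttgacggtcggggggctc
Ptch1: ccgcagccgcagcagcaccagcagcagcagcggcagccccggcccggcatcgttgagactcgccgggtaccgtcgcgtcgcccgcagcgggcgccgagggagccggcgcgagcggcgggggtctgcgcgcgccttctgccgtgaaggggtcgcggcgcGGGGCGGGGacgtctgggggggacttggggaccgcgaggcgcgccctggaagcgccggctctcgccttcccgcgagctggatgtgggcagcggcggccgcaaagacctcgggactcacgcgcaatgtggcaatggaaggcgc
The box was in 4 of the 6 windows, Gli3, Ptch1, Sufu and Hhip, and in 11.4% of all 32851 windows. The GLI core GACCACCCA, searched on both strands, was in 0 of the 6 and in 0.253% of all windows, which says only that these letters are not in these windows. The GC content was 71% for Gli3 and 76.3% for Ptch1, against a median of 52.7% over all windows. All 6 windows were above this median (56.3% to 76.3%). The share over all windows is thus not a like background for a motif made of G and C alone. The Gli3 and Ptch1 windows lie inside the spans given above for their genes, so each marks a start inside its gene.

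Of the ligands, Shh was listed at 0 in all 4 libraries. Ihh had 2, 0, 2 and 7 fragments, and Dhh had 15, 10, 6 and 30 fragments, in the libraries labelled basal with DMSO and baicalin and labelled luminal with DMSO and baicalin. Shh was thus not detected, Ihh was near the limit of detection, and Dhh was low. Dhh was higher with baicalin under the luminal label (ratio 4.69, 1.92 to 13.8), and its highest level was 0.330 FPKM. 546 of the Dhh exon bases (12.4%) overlap Rhebl1 on the same strand, and 1107 (25.2%) overlap the antisense Gm49442. The part of these overlaps in the Dhh fragments was not tested. Disp1, which releases ligand, was at 2.93 to 4.14 FPKM, and Hhat, which adds palmitate to ligand, at 0.974 to 1.47 FPKM. Scube3, a secreted protein of the family that helps release ligand, was at 0.273, 0.0948, 9.73 and 4.02 FPKM. It was 35.6-fold higher under the luminal label with DMSO (26.7 to 48.5), and lower there with baicalin (ratio 0.414, 0.379 to 0.452). Scube1 had 66, 0, 13 and 3 fragments, and was at least 22.5-fold lower with baicalin under the basal label. Scube2 had at most 4 fragments.

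Of the co-receptors, which help Ptch1 bind ligand, Gas1 had the largest log2 difference in each of the 4 comparisons. Gas1 was at 3.28 FPKM in the library labelled basal with DMSO, 0.416 with baicalin, 49.8 in the library labelled luminal with DMSO and 13.1 with baicalin. It was past the threshold in all 4 comparisons, with a baicalin ratio of 0.127 (0.0801 to 0.193) under the basal label and 0.263 (0.243 to 0.285) under the luminal label. 589 of the Gas1 exon bases (19.9%) overlap Gm48488 on the other strand. Boc was at 7.28, 9.07, 52.3 and 22.5 FPKM. It was lower with baicalin under the luminal label (ratio 0.431, 0.408 to 0.454) and higher under the basal label (1.25, 1.12 to 1.38). Cdon was at 10.9, 10.4, 5.65 and 3.38 FPKM, the only one of the 3 lower under the luminal label in both treatments. Lrp2, a large endocytic receptor, had 0, 0, 5 and 6 fragments. Kif7, a kinesin that regulates the GLI factors at the cilium tip, was at 1.94, 1.33, 3.44 and 2.76 FPKM.

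Pdgfra, a fibroblast marker, was at 0.593, 0.630, 6.30 and 1.67 FPKM, highest in the same library as Gas1 and Boc, unlike most of its list. 9 of the 10 fibroblast markers, all but Pdgfra, were higher with baicalin under the luminal label (45.6% of all genes tested). Under the basal label 8 of the 10 were lower with baicalin (49.1% of all genes). Between labels, 7 of the 10 were lower under the luminal label with DMSO (47.5% of all genes). With baicalin 8 of the 10 were higher there (45.2% of all genes). The 10 fibroblast markers together summed to 7.95, 3.39, 11.8 and 10.5 FPKM, with 3, 0, 3 and 5 of them at 1 FPKM or above and none listed at 0. Hormone-sensing luminal markers summed to 59.2, 26.9, 44.0 and 82.2 FPKM, most of it Ly6a (50.6, 23.2, 28.0 and 78.1 FPKM), and the other 4 of the 5 were lower with baicalin under the luminal label. Endothelial markers summed to 0.876 to 3.46 FPKM. Immune markers summed to 7.85, 51.6, 4.51 and 13.8 FPKM, nearly all of it Cd68, a lysosomal protein abundant in macrophages. Cd68 alone was at 7.49, 51.5, 4.44 and 13.7 FPKM, higher in both baicalin libraries. Under the basal label the other immune markers above 0 were lower with baicalin, Csf1r at 0.340 and 0.0908 FPKM and Ptprc at 5 and 0 fragments. The part of other cells in these results was not tested.

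**Figure D4:**
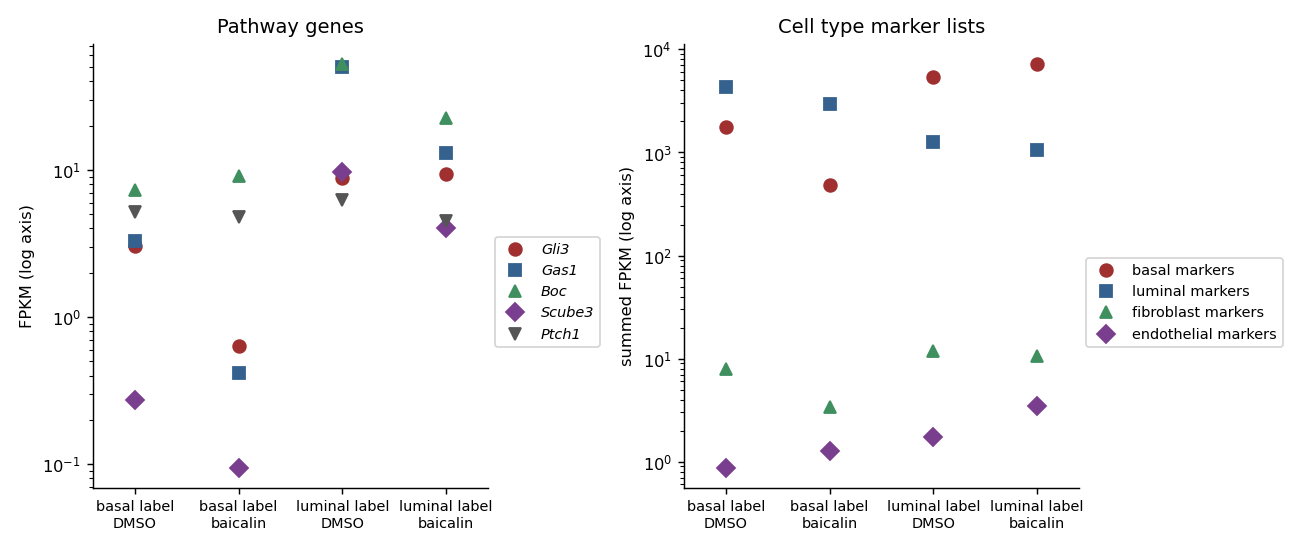
FPKM of Gli3, Gas1, Boc, Scube3 and Ptch1 (left) and summed FPKM of the basal, luminal, fibroblast and endothelial marker lists (right) in the 4 libraries, on log axes. The basal list was lowest in the library labelled basal with baicalin, at 479 FPKM, and highest in the library labelled luminal with baicalin, at 7199 FPKM.

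The wider list of 67 Hedgehog genes had 53 above 0 in all 4 libraries. For baicalin under the basal label 4 of 53 passed the threshold (7.55%, all genes 5.48%), with Ccnd2 higher and Bmp2, Gas1 and Gli3 lower. Under the luminal label 6 of 53 passed (11.3%, all genes 3.95%), with Ccnd2 and Prdm1 higher and Arrb1, Scube3, Gas1 and Boc lower. The list medians were -0.08 and -0.01, near 0. Between labels 8 passed with DMSO and 9 with baicalin (15.1% and 17.0%, all genes 8.56% and 8.23%).

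Ccnd2, a cyclin of the G1 phase and a commonly cited target, was at 0.867, 3.85, 20.2 and 55.3 FPKM in the libraries labelled basal with DMSO and baicalin and labelled luminal with DMSO and baicalin. It was higher with baicalin under both labels, 4.44-fold (3.74 to 5.30) under the basal label and 2.74-fold (2.64 to 2.85) under the luminal label, opposite in direction to Gli1. Prdm1, a transcriptional repressor, was at 0.668, 0.265, 1.98 and 6.09 FPKM, lower with baicalin under the basal label (0.397, 0.251 to 0.614) and higher under the luminal label (3.08, 2.63 to 3.60). The secreted factors Bmp2 and Bmp4 were highest in the library labelled basal with DMSO. Bmp2 was at 4.02, 1.28, 0.116 and 0.273 FPKM, with a baicalin ratio of 0.317 (0.248 to 0.402) under the basal label, and Bmp4 at 1.77, 1.25, 0.046 and 0.108 FPKM. Evc, a cilium protein that takes part in Smo signalling, was at 1.22, 0.647, 4.72 and 2.46 FPKM. Arrb1, an arrestin, was at 0.969, 1.35, 2.49 and 0.741 FPKM and just past the threshold with baicalin under the luminal label (-1.0).

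All 51 genes of primary cilium assembly and transport were above 0 in the 4 libraries, and none passed the threshold for baicalin under either label, beside 5.48% of all genes under the basal label and 3.95% under the luminal label. The signs differed between the labels, with 35 above and 16 below 0 under the basal label (median 0.10) and 8 above and 43 below 0 under the luminal label (median -0.21). Over all genes tested, 50.9% and 45.6% were above 0. The largest differences under the basal label were Ahi1 from 1.24 to 2.61 FPKM, Ift172 from 4.34 to 7.26 and Ift52 from 9.80 to 15.8. Under the luminal label they were Dync2h1 from 5.22 to 2.87 FPKM, Bbs9 from 3.63 to 1.92 and Tmem216 from 3.01 to 1.59. Between labels 1 of 51 passed with DMSO, Ahi1, and 0 with baicalin, beside 8.56% and 8.23% of all genes.

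**Figure D5:**
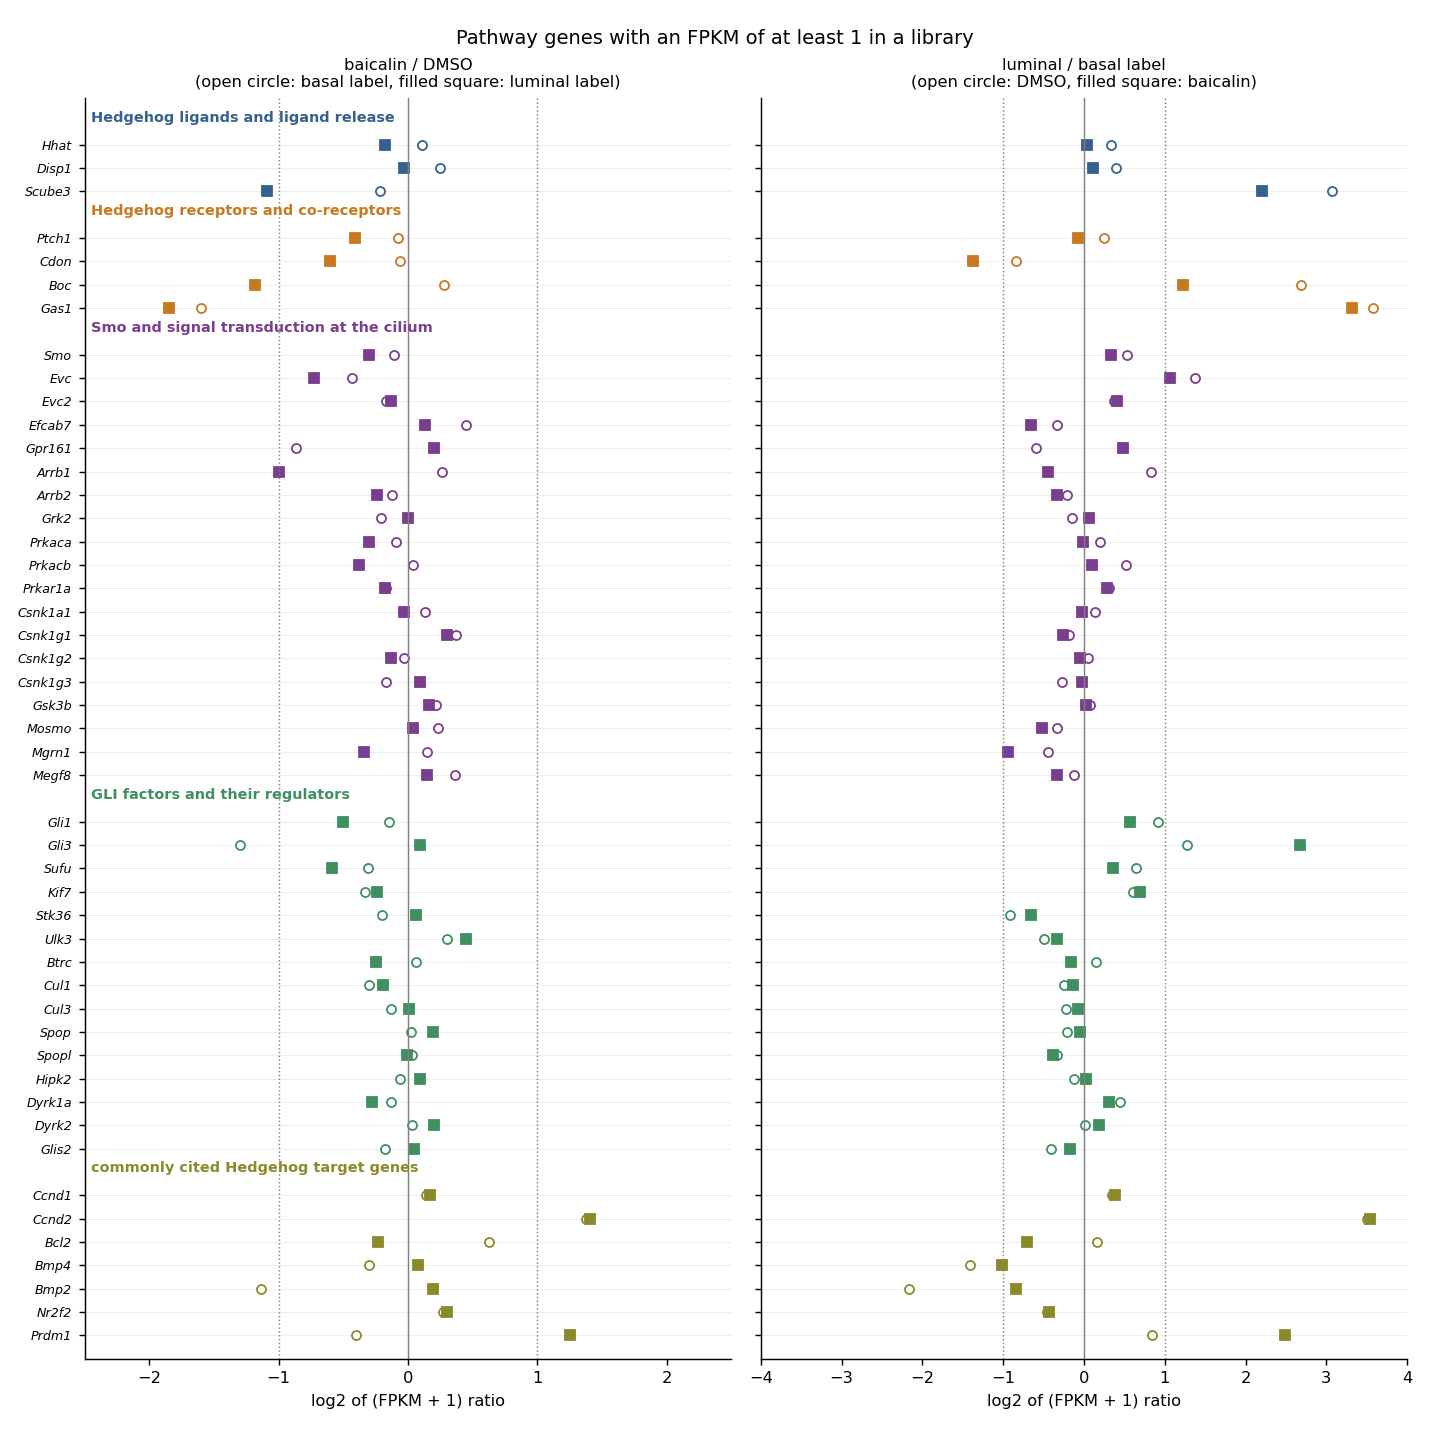
Log2 differences of the wider Hedgehog list by role, for genes with at least 1 FPKM in a library, with baicalin against DMSO on the left and luminal against basal label on the right, on different x ranges. On the left, open circles are the basal label and filled squares the luminal label, and on the right they are DMSO and baicalin. With baicalin, Gas1 was lower under both labels (-1.60 and -1.85) and Ccnd2 higher under both (1.38 and 1.41).

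Likeness was measured as the root-mean-square difference of centred log2(FPKM + 1) profiles over the 4 libraries, among 13797 genes with at least 1 FPKM in a library, for the members whose profile ranged over at least 1. For Gli3 the nearest were Plek2 (0.0194), Mical2 (0.073) and Dram1 (0.0963). For Gli1 they were Ldlrad3 (0.00983), Gm49503 (0.0209) and Ccdc28b (0.0211). With 4 points, close profiles are a description of these libraries.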

How the data were processed

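RNA of 4 libraries, 1 per condition, was enriched with oligo (dT) beads and sequenced from a stranded kit. Per the study's methods, the authors mapped reads with HISAT2 to GRCm38 (Ensembl release 94), and the authors deposited FPKM per gene made with featureCounts v1.5.0. The submitters' processing notes also name Bowtie 0.12.2 and mm8, with no role given. The strand setting is not given in the sources used here. Estradiol and progesterone experiments of the study were not analysed here.

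Exon lengths and positions came from GENCODE mouse release 21, for 54409 of 54446 genes. Library sizes were chosen so that FPKM times exon length gave whole fragments for low genes. This held for 99.1% to 99.3% of them (within 0.1 fragment), a share that the choice itself raises. The fragments gave exact Poisson intervals for levels and Clopper-Pearson intervals for ratios at 95%. The floor for a count of 0 was 3 fragments, and a fold against it takes the other count as exact. Log2 differences used a pseudocount of 1 FPKM, genes above 0 in all 4 libraries as in the study, and a threshold of 1. The t-test of the study needs replicates and was not run. Alternatives were pseudocounts, filters, scalings and a threshold of 2. The members and lists were chosen with earlier results of these data known. Genes named were the members, every ligand, receptor and co-receptor of the list, Kif7, genes of the wider list with at least 1 FPKM past the threshold, the 3 largest cilium differences per baicalin comparison, the 3 nearest profiles and markers that touch a result, except 1 gene that is not reported here. Code was tested on simulated data in which only well-expressed genes were changed. Changes of low genes such as Gli1, Gli2 and Hhip were thus not covered by that test. The code ran in Python 3.11.15 with pandas 2.3.3 for tables, numpy 2.4.6 and scipy 1.17.1 for the intervals, and matplotlib 3.10.9 for the plots.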

Additional observations from a re-analysis of the deposited data

How the results depend on the processing

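No paired analysis was possible because each condition has 1 library, which leaves no replicate numbers to pair. A fit with the label as a block, whose only measure of spread would be the difference in baicalin response between the labels, was not run, and no library could be left out. In the order baicalin under the basal label, baicalin under the luminal label, labels with DMSO and labels with baicalin, the counts of all genes past the threshold (975, 703, 1523 and 1463) became 2425, 1965, 3494 and 3357 with a pseudocount of 0.1 FPKM, 4209, 4151, 5491 and 5301 with none, 1698, 1296, 2585 and 2522 on the TPM scale, and 173, 106, 335 and 301 at a threshold of 2. The members past the threshold (1, 0, 1 and 1) became 3, 1, 2 and 3 with a pseudocount of 0.1 FPKM and 3, 2, 2 and 3 with none. They became 2 in both label comparisons on the TPM scale, and 0 for baicalin under the basal label and for the labels with DMSO at a threshold of 2. The wider list (4, 6, 8 and 9) became 7, 13 and 16 with a pseudocount of 0.1 FPKM in the first, the third and the fourth comparison, 9, 16, 16 and 18 with none, 14 for the labels with DMSO on the TPM scale, and 0, 0, 5 and 5 at a threshold of 2. The difference of the baicalin response between labels changed sign for Gli1, from -0.35 to 2.45 with no pseudocount, where 1 fragment in the library labelled basal with baicalin carries the value. For Gli2 it went from 0.28 to 1.51 with a pseudocount of 0.1 FPKM and 3.54 with none, resting on 3 fragments in that library. Of 110 log2 differences of single members under the alternatives, 95 kept their side of the threshold and 15 moved past it, all of Gli1, Gli2 or Hhip. Gli3 kept its direction and its side of a threshold of 1 in each comparison under every pseudocount and scaling tried. Depth limits Gli1, Gli2, Hhip and the ligands, whose levels rest on few fragments.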

Other observations

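Mycn and Gpr161 are outside the rule for named genes and were chosen after their values were seen. Mycn, a transcription factor cited as a Hedgehog target, had 8 and 3 fragments in the libraries labelled basal (DMSO, then baicalin) and 58 and 13 in those labelled luminal. Its baicalin ratio under the luminal label was 0.21 (interval 0.106 to 0.388). Of the 12 commonly cited target genes tested, Mycn among them, 8 differences were above 0 and 4 below in that comparison (median 0.07, all genes -0.02). Gpr161, a cilium receptor that restrains the pathway, was at 12.1 and 6.14 FPKM in the libraries labelled basal and at 7.65 and 8.92 FPKM in those labelled luminal. With baicalin it was lower under the basal label (ratio 0.509, 0.469 to 0.553) and higher under the luminal label (1.17, 1.07 to 1.27), and it did not pass the threshold in either comparison. The difference between the labels was not tested.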
